A study of Mus musculus with 27 samples.

Results

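The genes described here encode collagens, laminins and other structural proteins of the extracellular matrix. A gene was taken when its symbol was that of a collagen chain, a laminin chain, a fibrillin, fibulin, nidogen, thrombospondin or matrilin, or one of the named matrix genes biglycan (Bgn), decorin (Dcn), lumican (Lum), fibromodulin (Fmod), fibronectin (Fn1), tenascin C (Tnc), Sparc, osteopontin (Spp1), elastin (Eln), versican (Vcan), perlecan (Hspg2), periostin (Postn), Tgfbi and vitronectin (Vtn). The array carried 64 such genes among 8251 named genes, on 91 probe sets among 12422. They were divided by role into 8 fibrillar collagens, 20 basement membrane genes, 15 other collagens, 4 elastic fibre genes, 12 glycoproteins and 5 proteoglycans. For each gene 1 probe set was read, the one with the highest mean level over the 27 arrays.

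RNA came from explants of murine neural crest, grown from dorsal neural tube that had been cut along its midline. From every embryo 1 side served as control and the opposite side received retinoic acid (RA), which cells make from vitamin A, at 1e-06 M in ethanol. Exposure lasted 6, 12, 24 or 48 h, with 3 arrays for each treatment after 6 h and likewise after 12 h. There were 4 per treatment after 24 h, and after 48 h 4 controls but 3 with RA. Explants exposed for 6 h had first spent a night on dishes coated with fibronectin, in medium with horse serum; how long the others grew before RA is not stated in the labels. The embryos' strain and age and the number of explants per array are also not stated. All groups shared the dissected tissue, and the coating supplied 1 of these matrix proteins, fibronectin, from outside in the 6 h groups.

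Collagens are built from 3 chains wound into a triple helix. Fibrillar collagens such as types I, III and V assemble into the fibres of connective tissue, with type V setting the start and width of a fibre. Basement membranes are sheets in which laminin trimers and a type IV collagen network are joined by nidogens and perlecan. Small leucine-rich proteoglycans (Bgn, Dcn, Lum, Fmod) bind collagen fibres. Versican and tenascin C lie in or beside the paths that migrating neural crest cells take. Retinoic acid acts through nuclear receptors that bind DNA as dimers.

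Levels are log2 RMA intensities, a relative scale on which a step of 1 is a doubling and on which levels of different probe sets cannot be compared as amounts. A difference is the mean of one group minus that of another on this scale, with its standard error (SE). A gene was called when its adjusted p, by limma with Benjamini-Hochberg adjustment over all 12422 probe sets, was below 0.05. In each comparison the share of all probe sets called is given beside the count for matrix genes. Explants hold mixed cells, so fewer cells of a type and less RNA per cell cannot be told apart. Nothing states that the arrays of a group came from separate cultures, so a p value reflects array-to-array spread, which may be technical.

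A few arrays call for care. The array titled 48 h control 3 carries a description that calls it RA treated; it was kept as a control, and results at 48 h are also given with it counted as RA. By the scanner records, 13 pairs of a control and an RA array share a scan day and have adjacent record numbers. The array 48 h control 2 has no such partner. That array had the highest level of the 4 controls at 48 h for 31 of the 64 matrix genes (48.4%), against 22.2% of all probe sets. The 6 h and the 48 h arrays were each scanned on days of their own. Culture time and scan day therefore cannot be told apart between 6 h or 48 h and any other time. This includes the step from 6 h to 12 h, and no chip lot of the 6 h arrays was used at a later time. The 12 h and 24 h arrays shared 2 scan days. Of 12 neural crest markers 9 were on the array. Sox10, Snai2, Twist1, Erbb3, Pax3, Tfap2a and Msx1 lay above the 25th percentile of every array, whereas Ednrb was below it on all 27 arrays and Foxd3 on 23.

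All 6 roles included readily measured genes. The highest mean levels over the 27 arrays were those of Col5a2 (10.66) and Col1a1 (10.55) among fibrillar collagens, Col4a1 (10.52) and Col4a2 (9.83), the network chains of basement membranes, Col6a1 (8.15) and Col26a1 (8.02) among other collagens, Fbln1 (10.45) and Eln (7.14) among elastic fibre genes, Sparc (9.41) and Fn1 (8.95) among glycoproteins, and Vcan (10.25) and Bgn (9.79) among proteoglycans. On the opposite end, 6 genes were below the 25th percentile of the array on all 27 arrays, and 8, counting these, on 14 or more. Of the 64, 55 were never below it. RMA gives no call of presence, so a dim gene cannot be called absent.

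Retinoic acid was followed by a lower level of a few fibre components. The main fit leaves out the pairing of arrays. In it, averaged over the 4 times, Col1a2, Col5a2 and Bgn fell, and no matrix gene was called higher. This is 3 of 64 genes (4.69%), where 0.564% of all probe sets were called in the same comparison, 0.137% lower and 0.427% higher. The median difference over the 64 genes was -0.07, against 0.00 over all 8251 named genes, and 42 of 64 genes (65.6%) had a negative difference, against 47.4% of all genes. The plot of RA effects by role places Col1a2, Bgn, Lum and Tnc farthest to the left. When each record pair was fitted as a block, 9 genes were called lower and 3 higher, where 1.67% and 1.26% of all probe sets were.

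**Figure D1:**
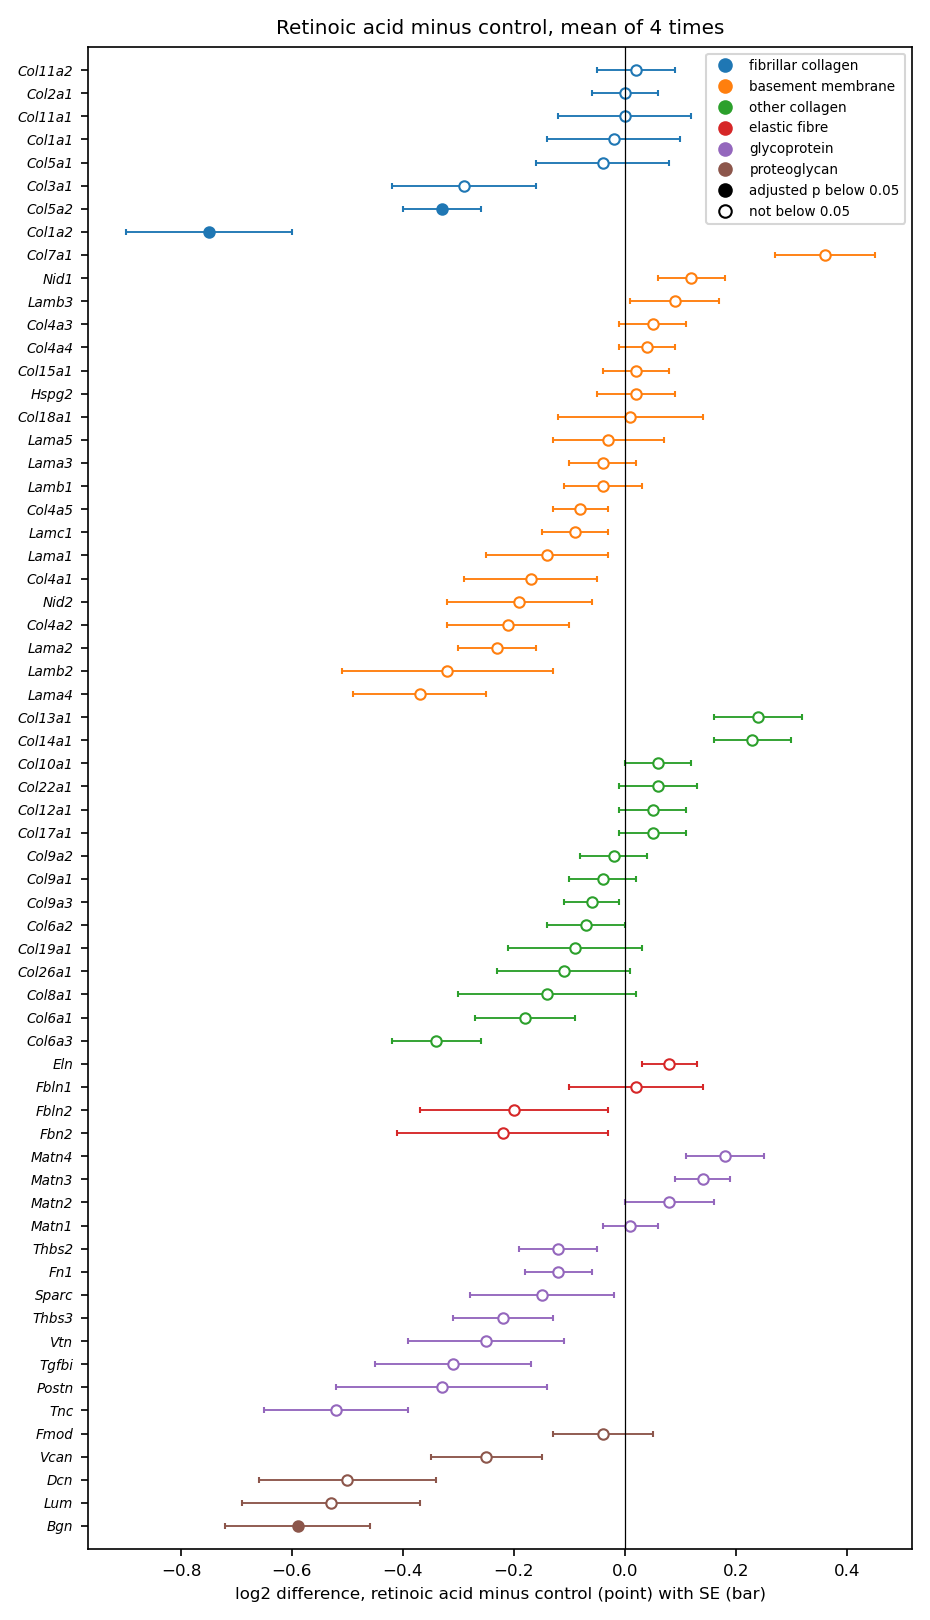
Difference between RA and control arrays averaged over 4 times (x axis, log2; negative means lower with RA) for each of the 64 matrix genes (y axis, grouped by role); points are limma estimates, bars are SE, and filled points passed an adjusted p of 0.05. Only Col1a2, Col5a2 and Bgn are filled, and all 5 proteoglycans lie to the left of 0, Fmod only just (-0.04).

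The promoter letters of 4 genes called in an RA comparison are printed so that a reader can set motif matches beside the direction of change. They are the 250 bases before the RefSeq transcript start, 5′ to 3′ on the gene's own strand, in GRCm38.p6. Col1a2 lies at chr6:4505368-4505617 on the plus strand, Bgn at chrX:73483351-73483600 on the plus strand, Lama2 at chr10:27616943-27617192 on the minus strand and Col7a1 at chr9:108953336-108953585 on the plus strand. Capitals mark matches, on either strand, to CCAAT, to GGGCGG (the GC box), to TATAAA and to AGGTCA (the core sequence that retinoic acid receptors recognise).
Col1a2: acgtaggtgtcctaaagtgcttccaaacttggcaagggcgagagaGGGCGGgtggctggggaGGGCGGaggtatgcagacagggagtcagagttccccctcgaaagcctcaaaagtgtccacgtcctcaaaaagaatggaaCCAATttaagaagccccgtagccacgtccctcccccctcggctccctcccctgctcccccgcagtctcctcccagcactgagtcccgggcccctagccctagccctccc
Bgn: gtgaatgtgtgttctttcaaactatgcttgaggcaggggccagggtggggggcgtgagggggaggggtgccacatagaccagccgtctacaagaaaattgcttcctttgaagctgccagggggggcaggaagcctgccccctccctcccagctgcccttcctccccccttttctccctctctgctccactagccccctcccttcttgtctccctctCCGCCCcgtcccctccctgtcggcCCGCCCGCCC
Lama2: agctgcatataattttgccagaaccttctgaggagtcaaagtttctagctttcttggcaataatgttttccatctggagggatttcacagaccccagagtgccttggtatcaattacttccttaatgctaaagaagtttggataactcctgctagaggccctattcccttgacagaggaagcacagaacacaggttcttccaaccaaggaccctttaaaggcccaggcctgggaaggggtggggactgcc
Col7a1: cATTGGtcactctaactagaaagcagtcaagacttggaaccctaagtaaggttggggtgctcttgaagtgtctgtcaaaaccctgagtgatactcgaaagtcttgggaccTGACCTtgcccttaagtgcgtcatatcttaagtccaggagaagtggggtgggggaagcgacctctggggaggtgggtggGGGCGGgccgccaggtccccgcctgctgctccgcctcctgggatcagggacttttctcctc

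The Col1a2 window held a CCAAT match 109 to 105 bases before the start and GC boxes at 205 to 200 and 188 to 183. Bgn held GC boxes at 34 to 29, 10 to 5 and 6 to 1, the last pair sharing letters. Col7a1 held a CCAAT match at 249 to 245, a GC box at 61 to 56 and an AGGTCA match at 140 to 135, written as its reverse complement. Lama2 had none of these letters in this window. Among all 32851 promoter windows in the table, 33.8% held CCAAT, 32.7% GGGCGG, 12.4% TATAAA and 14% AGGTCA. Promoters were found for 44 of the 64 genes, with 52 windows between them, of which 16, 27, 10 and 5 held these motifs in that order. These are matches of letters only.

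Col1a2 encodes the second chain of type I collagen, the main fibre of connective tissue. At 6 h its level was 9.78, 10.05 and 10.12 in controls and 9.19, 9.27 and 8.93 with RA. At 12 h it was 9.97, 9.72 and 10.20 in controls and 9.20, 9.69 and 10.00 with RA. All RA arrays lay below all controls at 6 h, while the groups overlapped at 12 h. At 24 h the controls read 9.91, 10.08, 9.99 and 9.37 and the RA arrays 9.83, 8.83, 8.66 and 9.12. At 48 h the controls read 9.12, 10.75, 9.73 and 9.44 and the RA arrays 8.76, 8.57 and 8.71. The groups overlapped at 24 h through RA array 1 and control 4, and did not overlap at 48 h. The level was lower on the RA array in 13 of 13 record pairs.

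The mean RA difference of Col1a2 was -0.75 ± 0.15 (SE), which is 1.68-fold lower (limma, adjusted p = 0.00974). The separate differences were -0.85 ± 0.31 at 6 h and -0.33 ± 0.31 at 12 h, followed by -0.73 ± 0.27 at 24 h and by -1.08 ± 0.29 at 48 h, and none of these passed alone (limma, lowest adjusted p = 0.186). Leaving out any 1 of the 27 arrays kept the mean call, with differences from -0.81 to -0.67. With 48 h control 3 counted as RA the mean difference was -0.68 and the call was lost (limma, adjusted p = 0.0657). The other probe set that names Col1a2 gave 0.14 ± 0.12 in the same comparison (limma, adjusted p = 0.999), so the fall was read by 1 of 2 probe sets.

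Its partner chain Col1a1 was not called. Col1a1 differed by -0.02 ± 0.12 averaged over the times (limma, adjusted p = 0.999) and by -0.17 ± 0.26 at 6 h and -0.12 ± 0.24 at 48 h. It was lower on the RA array in 6 of 13 record pairs. The difference between the 2 chains was not tested.

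Col5a2, a chain of the type V collagen that nucleates fibres, read 10.56, 10.68 and 10.58 in 6 h controls and 10.54, 10.29 and 10.13 with RA. At 12 h it read 10.40, 10.49 and 10.39 in controls and 10.04, 10.70 and 10.22 with RA. The groups were narrowly separate at 6 h and overlapped at 12 h, where RA array 2 was the highest of all 6. At 24 h the controls read 10.67, 11.11, 11.02 and 11 and the RA arrays 10.61, 10.30, 10.54 and 10.67. At 48 h the controls read 11.26, 11.42, 11.06 and 11.15 and the RA arrays 10.83, 10.76 and 10.50. RA arrays were thus low at both later times, with a touching pair at 24 h and a clear gap at 48 h.

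The mean RA difference of Col5a2 was -0.33 ± 0.07, 1.26-fold lower (limma, adjusted p = 0.0222), and 12 of 13 record pairs were lower with RA. Leaving out single arrays ended this call in 7 of 27 fits, with adjusted p up to 0.0556 by limma. The partner chain Col5a1 and the cartilage-type fibrillar chains Col2a1, Col11a1 and Col11a2 were not called, and the 8 fibrillar collagens had a median mean-RA difference of -0.03.

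On the probe sets read, all 5 proteoglycans had negative RA differences from 12 h to 48 h and on average, while Bgn alone was called. Those of Fmod were close to none at 24 h (-0.02), at 48 h (-0.04) and on average (-0.04). Its other probe set gave 0.26 at 12 h, -0.07 at 24 h, 0.00 at 48 h and 0.08 on average. Bgn, which binds type I collagen fibres, read 9.78, 9.45 and 9.43 in 6 h controls and 9.56, 9.49 and 9.02 with RA. At 12 h it read 9.73, 9.81 and 9.80 in controls and 9.02, 9.79 and 9.05 with RA. The groups overlapped at both times. At 24 h the controls read 9.88, 9.49, 10.66 and 10.21 and the RA arrays 9.21, 8.49, 9.51 and 9.76. At 48 h the controls read 10.69, 10.54, 10.85 and 11.17 and the RA arrays 10.13, 9.94 and 9.85. At 48 h every RA array lay below every control.

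The mean RA difference of Bgn was -0.59 ± 0.13, 1.5-fold lower (limma, adjusted p = 0.0359), with 12 of 13 record pairs lower. This call was close to the threshold: it was lost in 15 of 27 fits that left out 1 array, with adjusted p up to 0.0848 by limma. With 48 h control 3 counted as RA it was -0.53 (limma, adjusted p = 0.138). A second probe set differed by -0.11 ± 0.06 (limma, adjusted p = 0.999). Lum, a fibre-spacing proteoglycan, differed by -0.53 ± 0.16 (adjusted p = 0.219 by limma), Dcn by -0.50 ± 0.16 (0.291), Vcan by -0.25 ± 0.10 (0.529) and Fmod by -0.04. At 48 h alone Dcn differed by -1.12 ± 0.31 and was not called (limma, adjusted p = 0.236). That value was enlarged by 48 h control 2, which read 8.14 where the other controls lay from 6.33 to 7. Without that array the difference was -0.74. The Dcn record pairs at 48 h, which do not use it, differed by -0.51, -0.65 and -1.07.

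**Figure D2:**
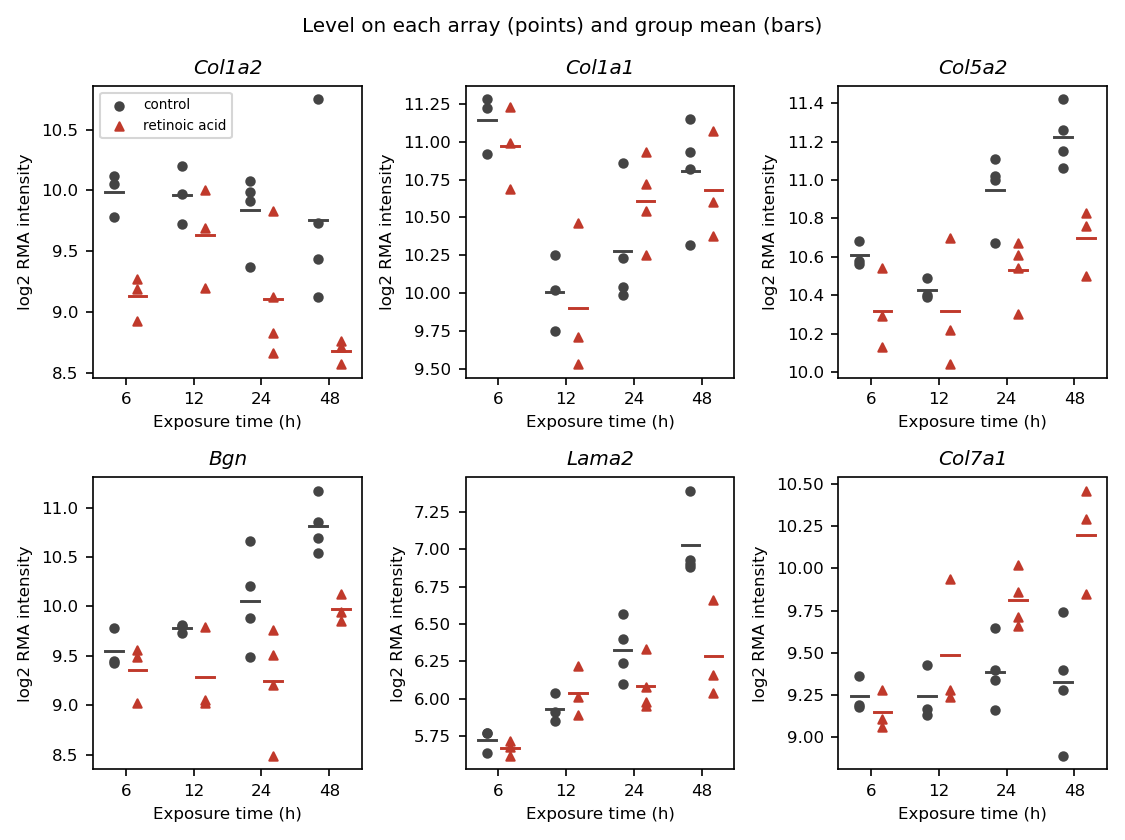
Level on each array (y axis, log2 RMA intensity) at each exposure time (x axis, hours) for Col1a2, its partner chain Col1a1, Col5a2, Bgn, Lama2 and Col7a1; grey circles are controls, red triangles RA arrays, and bars group means. At 48 h the groups do not overlap for Col1a2, Col5a2, Bgn, Lama2 and Col7a1, whereas they do for Col1a1.

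At 48 h alone, 2 genes were called, both of the basement membrane zone. This is 3.12% of the 64, where 0.274% of all probe sets were called, 0.0403% lower and 0.233% higher. Lama2, the alpha chain of the laminin around muscle and Schwann cells, fell, and Col7a1, the collagen of the fibrils that anchor epithelium to the tissue under it, rose. Without overlap, RA arrays lay below controls for 5 of 64 genes (Col1a2, Col5a2, Lama2, Bgn and Lum), with a background of 0.765% of all probe sets. They lay above controls for 3 (Col7a1, Nid1 and Col13a1), with a background of 1.06%.

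Lama2 was low at first and climbed in controls. It read 5.77, 5.64 and 5.77 in 6 h controls and 5.68, 5.62 and 5.72 with RA, and 6.04, 5.85 and 5.91 in 12 h controls and 6.01, 6.22 and 5.89 with RA. At 24 h the controls read 6.10, 6.24, 6.40 and 6.57 and the RA arrays 5.95, 5.98, 6.33 and 6.08. Up to that time the groups overlapped. At 48 h the controls read 6.88, 7.39, 6.90 and 6.93 and the RA arrays 6.66, 6.16 and 6.04. The RA arrays at 48 h were all below the controls, and control 2 stood above the other controls.

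The 48 h difference of Lama2 was -0.74 ± 0.14, 1.67-fold lower (limma, adjusted p = 0.0163). Without 48 h control 2 it was -0.62, with an adjusted p of 0.0684 by limma. It was also lost without RA array 2 or RA array 3 at 48 h. The mean over the 4 times was -0.23 ± 0.07 (limma, adjusted p = 0.279).

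Col7a1 moved the other way. It read 9.36, 9.18 and 9.19 in 6 h controls and 9.28, 9.11 and 9.06 with RA, and 9.17, 9.43 and 9.13 in 12 h controls and 9.24, 9.94 and 9.28 with RA. At 24 h the controls read 9.40, 9.34, 9.16 and 9.65 and the RA arrays 9.66, 9.71, 10.02 and 9.86. At 48 h the controls read 9.74, 9.28, 8.89 and 9.40 and the RA arrays 10.46, 9.85 and 10.29. Controls lay between 8.89 and 9.74 over all times. RA arrays were above all controls of the same time at 24 h, narrowly (9.66 against 9.65), and at 48 h.

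The 48 h difference of Col7a1 was 0.87 ± 0.18, 1.83-fold higher (limma, adjusted p = 0.0312), after -0.09 ± 0.19 at 6 h, 0.24 ± 0.19 at 12 h and 0.43 ± 0.17 at 24 h. Without 48 h control 2 it was 0.85 and the adjusted p was 0.085 by limma. The call was also lost without control 3, RA array 1 or RA array 3 at 48 h. With the array titled 48 h control 3 counted as RA, no matrix gene was called at 48 h: Lama2 differed by -0.63 (limma, adjusted p = 0.236) and Col7a1 by 0.40 (0.434). Both calls were also lost with array weights, at adjusted p of 0.0563 and 0.565, and when only the 48 h groups were fitted, at 1.0 for each.

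At 6 h, 12 h and 24 h no matrix gene was called by limma, where 0.0242%, 0.0242% and 0.153% of all probe sets were. Of all probe sets, 0.00805% were called lower at 24 h. At 6 h, however, RA arrays lay below controls without overlap for 13 of 64 genes (20.3%), where 8.29% of all probe sets did so, and above for 2 (Lamb3 and Matn2), where 7.28% of all probe sets did so. The 13 were Col1a2, Col3a1, Col5a2, Lama4, Lamb2, Nid2, Col26a1, Col6a1, Fbln1, Fbln2, Sparc, Thbs3 and Tnc, named here after their values were seen. At 12 h the counts were 2 below (Lamb1, Dcn) and 2 above (Col14a1, Matn4), with 4.5% and 4.49% of all probe sets. At 24 h they were 3 below (Col6a3, Fn1, Tnc) and 2 above (Col18a1, Col7a1), with 0.845% and 1.39%.

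The record pairs share a scan day. Their deviations from the group means had a median correlation of 0.451, though only -0.052 to 0.257 at 12 h. The RA effect was therefore also fitted with each pair as a block, which leaves 48 h control 2 without weight in it. Averaged over the times, 12 of the 64 genes were then called (18.8%), where 2.94% of all probe sets were. The 9 lower genes were Col1a2 (-0.67), Bgn (-0.61), Lum (-0.49), Tnc (-0.47), Dcn (-0.41), Lama4 (-0.35), Col5a2 (-0.32), Col6a3 (-0.30) and Vcan (-0.28). The 3 higher genes were Col7a1 (0.36), Col13a1 (0.23) and Col14a1 (0.22). Lama4, Lum, Dcn, Vcan, Col13a1 and Vtn were called in no comparison without a block, and their blocked values are given for that reason.

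Tnc, a glycoprotein that weakens cell attachment to fibronectin, was lower on the RA array in 12 of 13 record pairs, and its blocked mean difference was -0.47 ± 0.07 (limma, adjusted p = 0.000857). Col6a3, a chain of the beaded microfibrils of type VI collagen, was also lower in 12 of 13, at -0.30 ± 0.06 (adjusted p = 0.00654 by limma). Without the block their adjusted p values were 0.0851 and 0.0534.

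At single times the pair block added calls. At 24 h Bgn (-0.82 ± 0.14, adjusted p = 0.00727) and Tnc (-0.59 ± 0.13, adjusted p = 0.0444) fell by limma, with 0.652% of all probe sets called. At 48 h Lama2 (-0.62), Bgn (-0.93) and Vtn (-0.78), a serum adhesion protein, were lower and Col7a1 (0.85) and Col13a1 (0.62), a membrane-bound collagen, were higher, with 0.99% of all probe sets called. The pair differences of Vtn at 48 h were -1.53, -0.60 and -0.20, with the first carried by control 1 at 7.74, where the other controls read 6.15, 6.27 and 5.96. At 6 h and 12 h no matrix gene was called with this block, where 0.95% and 0.137% of all probe sets were.

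Whether the RA effect changed between 6 h and 48 h was tested as a difference of differences. No matrix gene passed by limma, where 0.0161% of all probe sets did. For Col7a1 this difference was 0.96 ± 0.27, and with the pair block it was 0.94 ± 0.17 (limma, adjusted p = 0.0248), the single matrix gene called in that fit, with 0.145% of all probe sets. For Lama2 it was -0.68 ± 0.21 (limma, adjusted p = 1.0). All 5 proteoglycans were negative, with a median of -0.65.

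Among the basement membrane chains set side by side, those of the type IV network and of the first embryonic laminin were not called between RA and control. Col4a1 and Col4a2, which wind together, differed by -0.17 ± 0.12 and -0.21 ± 0.11 on average, and neither was called. The laminin chains Lama1, Lamb1 and Lamc1 differed by -0.14 ± 0.11, -0.04 ± 0.07 and -0.09 ± 0.06 (limma, adjusted p = 0.999 for each). None of the 4 elastic fibre genes was called in any of the 11 comparisons, and their mean RA differences lay between -0.22 and 0.08. Fn1, the adhesive protein used as coating, differed by -0.12 ± 0.06, and Sparc, a collagen-binding protein, by -0.15 ± 0.13.

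With time in culture, a minority of the matrix genes was called higher. From 6 h to 48 h in controls, 13 of the 64 genes rose and none fell, so that 20.3% were called higher, where 9.52% of all probe sets were called, 4.23% higher and 5.29% lower. The genes were Tgfbi, Lama2, Nid2, Bgn, Col3a1, Lamb1, Tnc, Col6a3, Col5a2, Col11a2, Nid1, Col6a2 and Col9a1. The median difference over the 64 genes was 0.22, against 0.07 over all named genes, and without 48 h control 2 it was 0.21. Leaving out single arrays gave 9 to 17 called genes, and the calls of Tgfbi, Lama2, Nid2, Bgn, Col3a1, Lamb1, Col6a3 and Col5a2 were kept in all 27 such fits. By role, 3 of 8 fibrillar collagens, 4 of 20 basement membrane genes, 3 of 15 other collagens, 2 of 12 glycoproteins and 1 of 5 proteoglycans rose. No elastic fibre gene was called, and 3 of the 5 proteoglycans had a negative difference, with a median of -0.08.

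**Figure D3:**
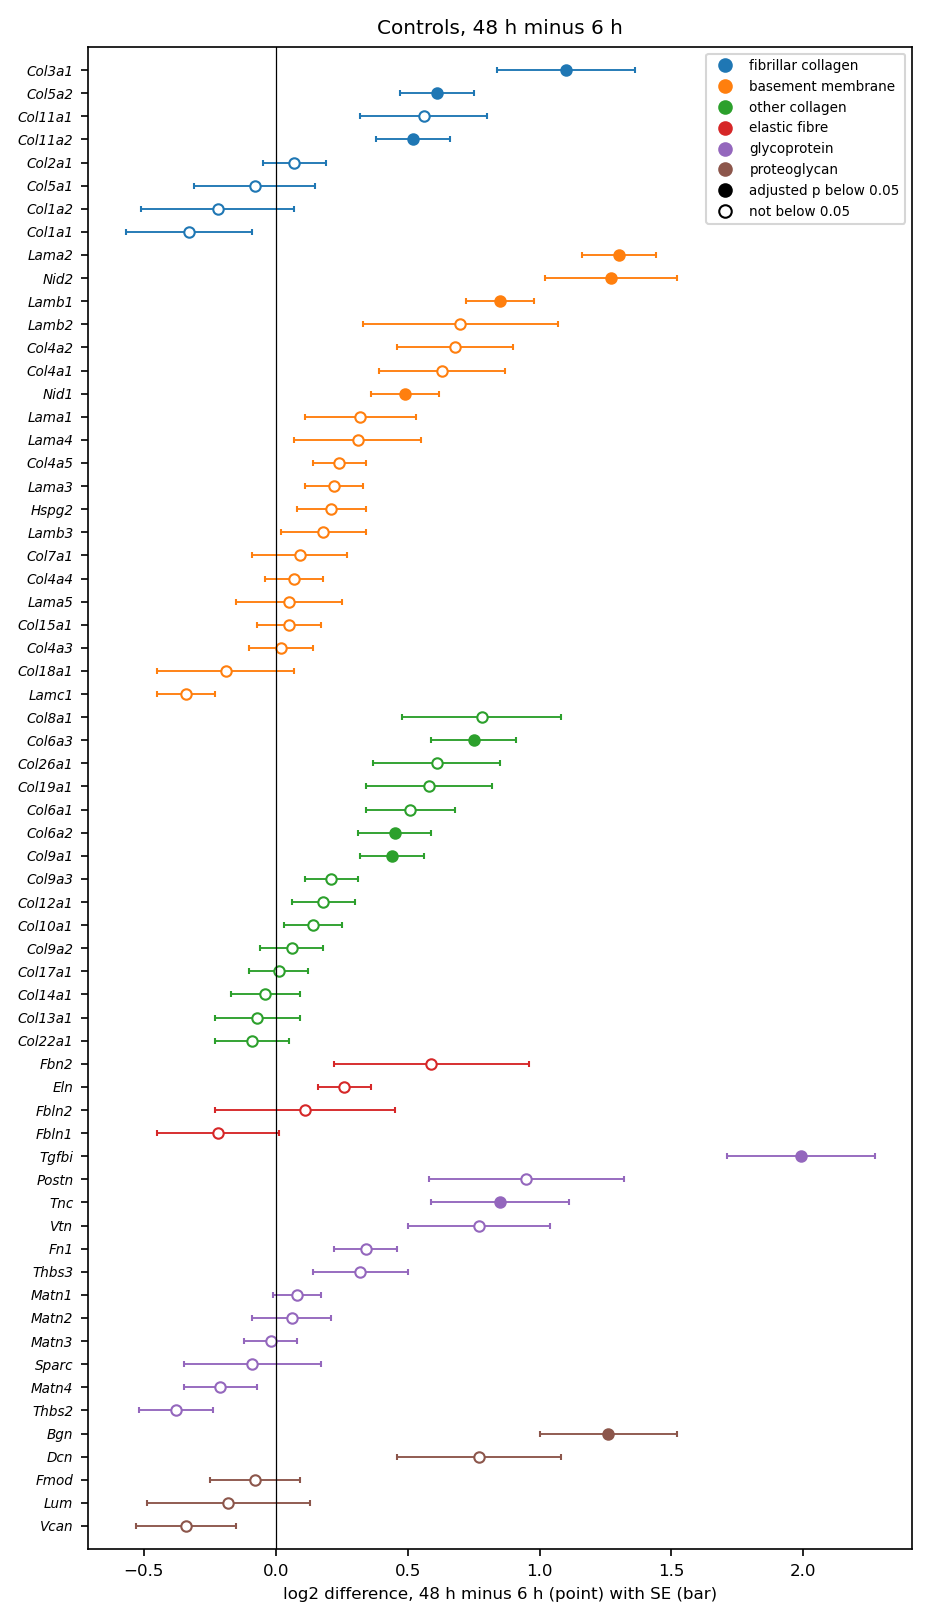
Difference between 48 h and 6 h control arrays (x axis, log2; positive means higher at 48 h) for each of the 64 matrix genes (y axis, grouped by role); points are limma estimates, bars are SE, and filled points passed an adjusted p of 0.05. All 13 filled points lie to the right of 0, with Tgfbi at 1.99 the farthest.

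Tgfbi, a secreted adhesion protein named for its induction by TGF-beta, read 7.24, 7.24 and 6.97 at 6 h, then 8.42, 8.39 and 8.46 at 12 h, next 8.79, 8.42, 8.94 and 8.64 at 24 h and finally 9.07, 10.28, 8.43 and 8.77 at 48 h in controls. Every later control was above every 6 h control, and 48 h control 2 was the highest. The rise was 1.99 ± 0.28 from 6 h to 48 h, 3.97-fold (limma, adjusted p = 7.3e-05), and 1.61 without 48 h control 2. The first step, 6 h to 12 h, was 1.27 ± 0.30 (limma, adjusted p = 0.0126). The gene's other probe set was dim (mean level 3.55) and differed by 0.22 ± 0.17 from 6 h to 48 h (limma, adjusted p = 0.446).

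Nid2, a nidogen that links laminin to type IV collagen, read 6.24, 6.57 and 6.44 at 6 h, then 7.78, 7.38 and 7.46 at 12 h, next 7.49, 7.24, 7.52 and 7.58 at 24 h and finally 8.02, 8.37, 6.99 and 7.38 at 48 h in controls. It stepped up between 6 h and 12 h by 1.12 ± 0.27 (limma, adjusted p = 0.0133) and stood 1.27 ± 0.25 higher at 48 h (adjusted p = 0.00174 by limma). The related Nid1 rose by 0.49 ± 0.13 from 6 h to 48 h (limma, adjusted p = 0.0148), a call lost with cyclic loess (0.40, adjusted p = 0.0964), with array weights (0.0518) and with only the compared groups (0.131).

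Differences of the laminin chains over time in controls had both signs. Lamb1 read 8.77, 8.70 and 8.65 at 6 h, then 9.56, 9.57 and 9.51 at 12 h, next 9.60, 9.47, 9.72 and 9.70 at 24 h and finally 9.77, 9.15, 9.69 and 9.63 at 48 h. It rose by 0.84 ± 0.14 from 6 h to 12 h (limma, adjusted p = 0.00107) and no later step was called, with 48 h control 2 the lowest of its group. Lamc1, its usual partner, fell by 0.47 from 6 h to 12 h (SE 0.12, limma, adjusted p = 0.0204). Lama1 differed by 0.33 ± 0.23 over that step. Lama2 rose by 1.30 ± 0.14 from 6 h to 48 h (limma, adjusted p = 6.24e-06), of which 0.70 ± 0.13 came between 24 h and 48 h (adjusted p = 0.00798 by limma).

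The probe sets read for Lamb1, Lamc1, Nid2 and Col13a1 are of classes that can share signal with related sequences, and this was not tested. Nid2 had no second probe set. A second Lamb1 probe set gave 0.49 ± 0.15 from 6 h to 12 h, which did not pass (limma, adjusted p = 0.0592), and rose by 0.90 ± 0.14 from 6 h to 48 h (0.000236). A second Lamc1 probe set was dim (mean level 3.79) and differed by -0.12 ± 0.17 from 6 h to 12 h (limma, adjusted p = 0.816). A second Col13a1 probe set (mean level 4.84) had a mean RA difference of 0.10 ± 0.06 without a block (limma, adjusted p = 0.999).

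Among fibrillar collagens, Col3a1 of soft and vascular tissue read 9.26, 9.39 and 9.56 at 6 h, then 9.82, 9.80 and 9.74 at 12 h, next 9.94, 9.84, 10.35 and 10.22 at 24 h and finally 10.36, 11.30, 10.46 and 9.92 at 48 h in controls. No later control lay as low as the 6 h controls. The rise from 6 h to 48 h was 1.10 ± 0.26, 2.15-fold (limma, adjusted p = 0.00725), and 2 other probe sets of the gene rose too, by 1.29 and 0.90 (adjusted p = 0.0466 and 0.0128 by limma). Col5a2 rose by 0.61 ± 0.14 and Col11a2 by 0.52 ± 0.14.

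The type I chains were not called over the whole span. Col1a1 read 10.92, 11.22 and 11.28 at 6 h, then 9.75, 10.25 and 10.02 at 12 h, next 10.04, 10.86, 10.23 and 9.99 at 24 h and finally 10.82, 11.15, 10.93 and 10.32 at 48 h in controls. It fell by 1.14 on the log2 scale from 6 h to 12 h (SE 0.26, limma, adjusted p = 0.0101), with no overlap, and at 48 h the difference from 6 h was -0.33 ± 0.24 (adjusted p = 0.414 by limma). A second probe set gave -0.93 ± 0.38 over the first step (limma, adjusted p = 0.186). Col1a2 differed by -0.02 ± 0.31 from 6 h to 12 h.

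Bgn rose by 1.26 ± 0.26 in controls from 6 h to 48 h, 2.39-fold (limma, adjusted p = 0.00266), and its second probe set by 0.63 ± 0.12 (adjusted p = 0.00173 by limma). Tnc read 8.75, 8.71 and 8.19 in 6 h controls and 9.29, 9.96, 8.67 and 9.66 in 48 h controls, which overlapped through control 3. It rose by 0.85 ± 0.26 (limma, adjusted p = 0.0422), and without 48 h control 2 the difference was 0.66 with an adjusted p of 0.0987 by limma. This was 1 of 9 such fits that ended its call. The other probe set of Tnc gave 0.23 ± 0.22 (limma, adjusted p = 0.555). Col6a3 read 6.39, 6.42 and 6.39 in 6 h controls and 6.77, 7.59, 7.20 and 7.05 in 48 h controls, with no overlap. It rose by 0.75 ± 0.16 (limma, adjusted p = 0.00308).

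Smaller rises of type VI and type IX members passed with lower margins. Col6a2 rose by 0.45 ± 0.14 (limma, adjusted p = 0.0466) and lost the call in 17 of 27 fits that left out 1 array, 48 h control 2 among them (0.35, adjusted p = 0.102 by limma). Col9a1, a chain that decorates cartilage-type fibres, rose by 0.44 ± 0.12 (limma, adjusted p = 0.0211). The calls of Col9a1 and Col11a2 were lost in 3 and 4 of 27 fits without 1 array (6 h control 1 or 2 and 48 h control 3 for both, and 48 h control 1 for Col11a2), and that of Nid1 without 6 h control 3. With 48 h control 3 counted as RA, Col11a2 (0.41, limma, adjusted p = 0.1) and Col9a1 (0.36, 0.0901) also lost theirs. When only the compared groups were fitted, Nid2, Col3a1, Tnc, Col6a3, Col11a2, Nid1, Col6a2 and Col9a1 lost their calls, at adjusted p from 0.0671 to 0.272 by limma. Tnc and Col6a2 also lost them with median centring, Col6a2 with cyclic loess, and Col6a2 and Col9a1 with array weights. Col4a1 and Col4a2 differed by 0.63 ± 0.24 and 0.68 ± 0.22 over the same span and were not called (limma, adjusted p = 0.0989 and 0.0582).

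**Figure D4:**
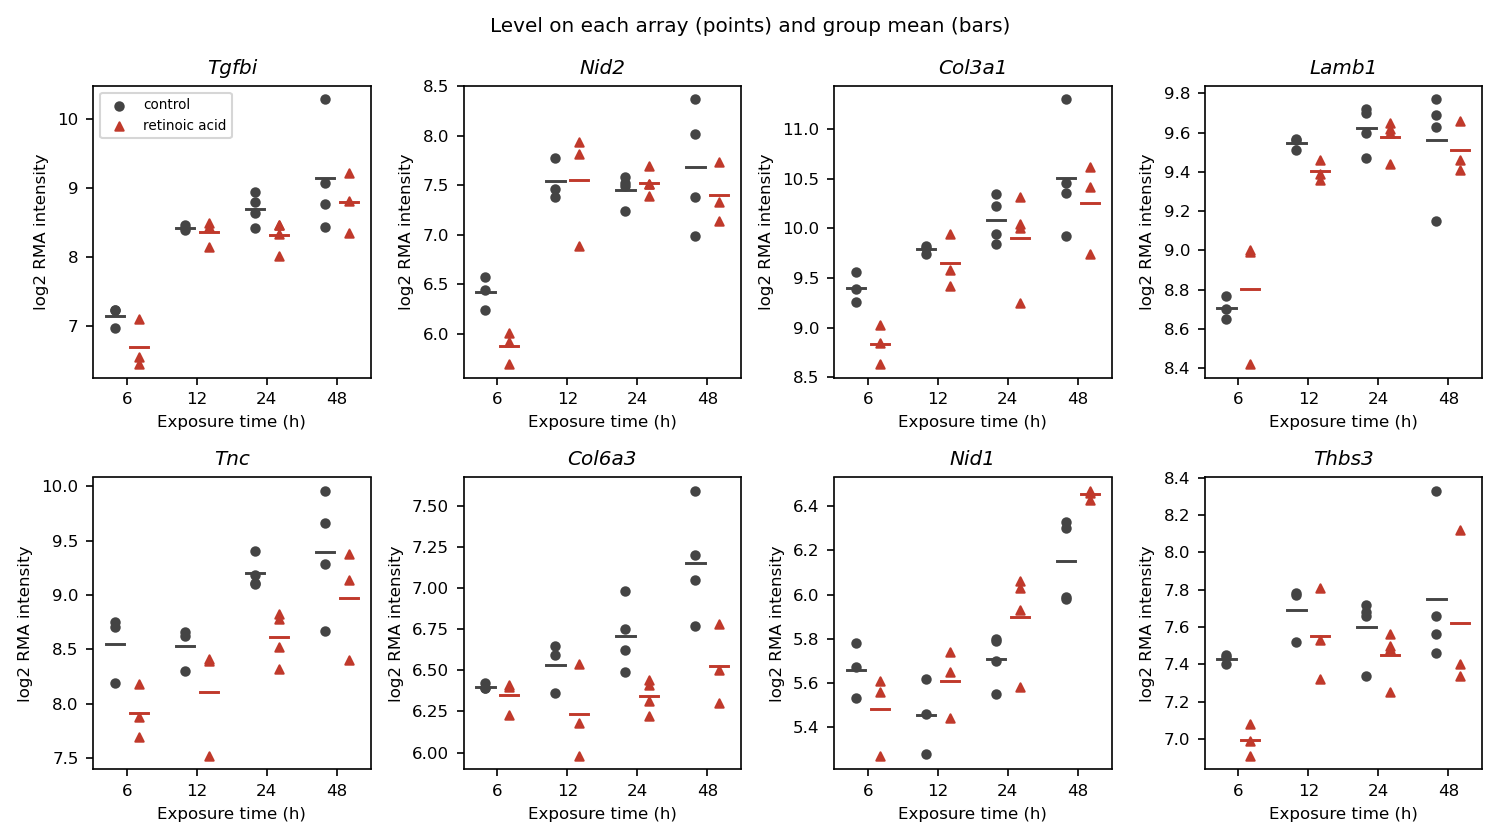
Level on each array (y axis, log2 RMA intensity) at each exposure time (x axis, hours) for Tgfbi, Nid2, Col3a1, Lamb1, Tnc, Col6a3, Nid1 and Thbs3; grey circles are controls, red triangles RA arrays, and bars group means. Tgfbi, Nid2 and Lamb1 lie higher at 12 h than at 6 h in both treatments, and the Nid1 RA arrays at 48 h sit together above the 48 h controls.

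Counts of calls differed between the steps of the control series, among all probe sets as among matrix genes. The median difference over the 64 genes was 0.05, then 0.09 and then 0.16 over the successive steps. Over all named genes it was at most 0.02. From 6 h to 12 h, 5 matrix genes were called (7.81% against 5.43% of all probe sets, 2.65% higher and 2.78% lower): Tgfbi, Nid2 and Lamb1 rose and Col1a1 and Lamc1 fell. The call of Lamb1 was kept in all 27 fits without 1 array. The others were lost in single fits, namely without 6 h control 3 or 12 h control 1 for Col1a1 and Tgfbi, 6 h control 1 or 12 h control 1 for Nid2, and 6 h control 2 or 3 or 12 h control 1 or 2 for Lamc1, with adjusted p up to 0.121 by limma. From 12 h to 24 h none was called by limma, where 0.0564% of all probe sets were, 0.00805% higher and 0.0483% lower. With scan day as a block, which these times share in part, Tnc rose by 0.73 ± 0.18 over that step (limma, adjusted p = 0.044), with 1.57% of all probe sets called. From 24 h to 48 h Lama2 alone was called (1.56% against 1.08% of all probe sets, 0.459% higher), and without 24 h control 1 its adjusted p was 0.0503 by limma. With only the compared groups it was 0.195.

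The RA arrays rose over the same span in their own right. From 6 h to 48 h with RA, 11 of 64 genes rose and none fell (17.2%, where 5.51% of all probe sets were called higher and 6.23% lower). Tgfbi rose by 2.09 ± 0.30, Nid2 by 1.53 ± 0.27, Col3a1 by 1.42 ± 0.27, Tnc by 1.06 ± 0.28, Nid1 by 0.98 ± 0.13, Lamb1 by 0.71 ± 0.14 and Lama2 by 0.61 ± 0.15. Col9a1 rose by 0.40 ± 0.13. Col7a1, Thbs3 and Col14a1 were called here and not in controls. Col7a1 rose by 1.04 ± 0.19, against 0.09 ± 0.18 in controls. The thrombospondin Thbs3 rose by 0.63 ± 0.19, against 0.32 ± 0.18, and Col14a1, a collagen that binds to fibre surfaces, by 0.49 ± 0.14, against -0.04 ± 0.13. Among these 11, leaving out 1 array ended the call of Col9a1 in 11 of 27 fits, of Tnc, Thbs3 and Col14a1 in 4 each and of Lama2 in 1, without 48 h RA array 1. Without that array Thbs3 stood at 0.38 (limma, adjusted p = 0.224), and without 48 h RA array 3 Col14a1 stood at 0.29 (0.191). With 48 h control 3 counted as RA, Col14a1 was at 0.37 and lost its call (limma, adjusted p = 0.0897). When only the compared groups were fitted, Tnc, Thbs3, Col9a1, Lamb1, Lama2 and Col14a1 lost theirs. Thbs3 also lost it with median centring, and Col9a1 with cyclic loess or an intensity trend. The reverse held for Bgn (0.61 ± 0.28), Col6a3 (0.18 ± 0.17), Col5a2 (0.38 ± 0.15), Col11a2 (0.26 ± 0.15) and Col6a2 (0.28 ± 0.15), which were called in controls and not with RA. The tests of these differences are those of the RA effect at 48 h minus 6 h, none of which passed without the pair block.

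The comparisons over time and the RA comparisons share arrays: the 48 h controls enter both, so a high control there raises the time difference and lowers the RA difference at once. Bgn, Col5a2 and Lama2 were called higher with time in controls and lower with RA.

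**Figure D5:**
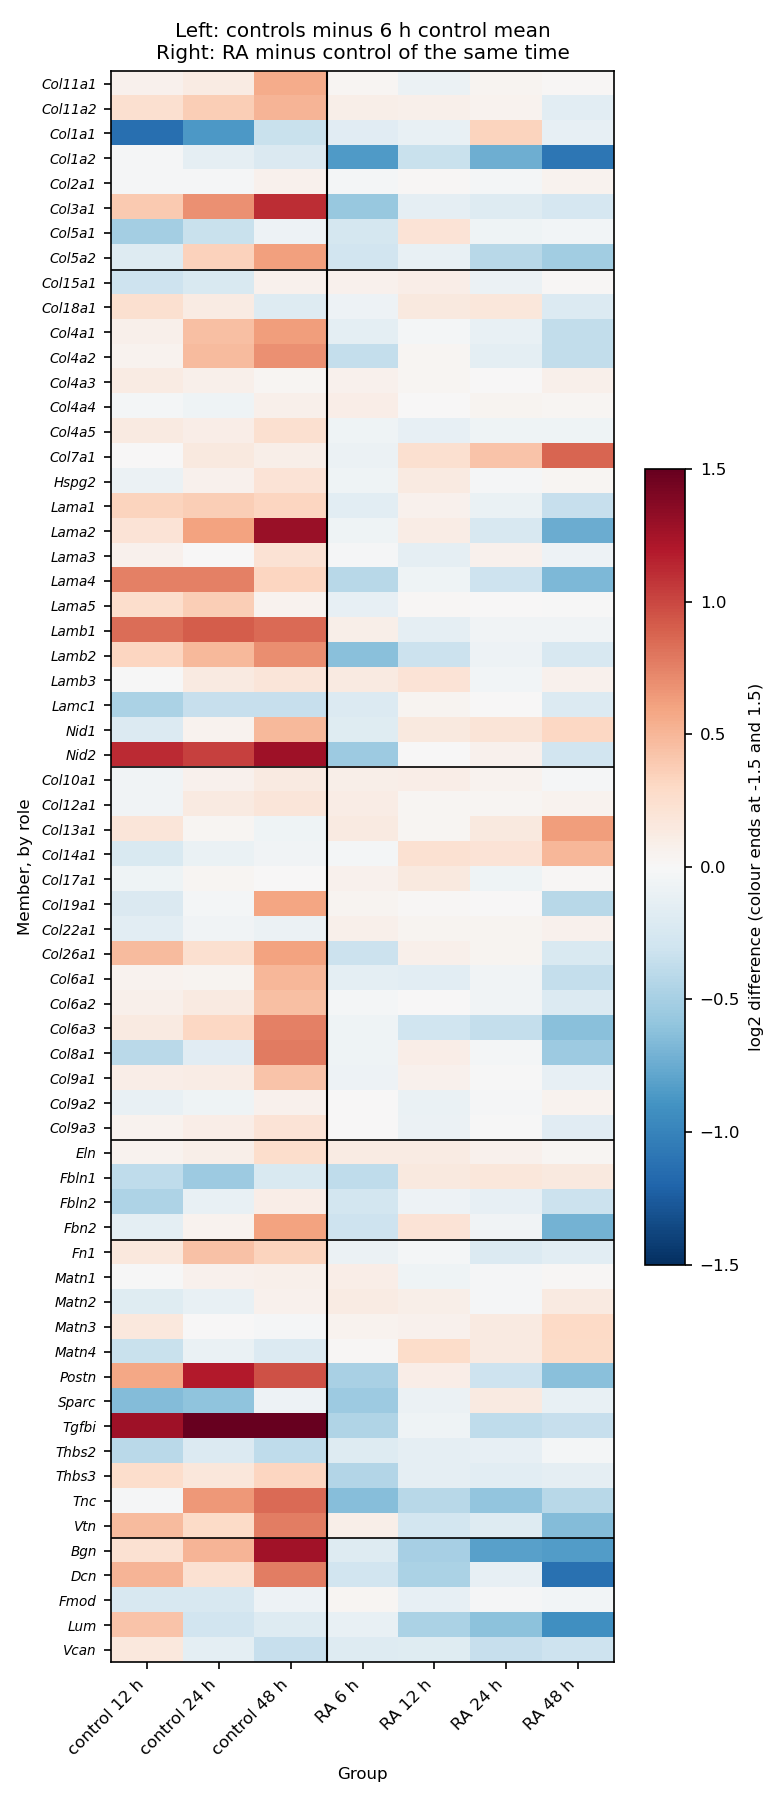
Colour map of log2 differences for the 64 matrix genes (y axis, ordered by role); the left 3 columns are control groups minus the 6 h control mean and the right 4 columns RA minus control of the same time, with red for higher and blue for lower and colours ending at -1.5 and 1.5. Tgfbi and Nid2 are red in all 3 control columns, and Col1a2 is blue in all 4 RA columns.

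Genes that process collagen and elastin were called over time and not with RA. Of 20 such genes listed, 14 were on the array, and none was called in an RA comparison at a single time or on average. From 6 h to 48 h in controls 2 of 14 rose, where 4.23% of all probe sets were called higher: P4ha2, which hydroxylates proline in collagen (0.71 ± 0.13), and Loxl1, which crosslinks elastin (0.73 ± 0.14). With RA 5 of 14 rose, where 5.51% were called higher: Pcolce, an enhancer of procollagen cleavage (0.87 ± 0.25), Colgalt1, which adds galactose to collagen (0.76 ± 0.24), Loxl1 (0.71 ± 0.15), Serpinh1, the collagen chaperone (0.61 ± 0.16), and P4ha2 (0.50 ± 0.14). Between 24 h and 48 h P4ha1 (0.89 ± 0.22) and P4ha2 (0.71 ± 0.12) rose in controls, 2 of 14 where 0.459% of all probe sets were called higher. Crtap, which helps modify collagen, fell by 0.87 from 6 h to 12 h (SE 0.17, limma, adjusted p = 0.00304).

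Markers of cell types moved over the same span in controls, in which 5.29% of all probe sets were called lower and 4.23% higher. Of 9 neural crest markers 3 fell (Msx1 -1.29, Pax3 -0.86, Tfap2a -0.65), and the summed linear intensity of the 9 ran from 2141 to 2429 at 6 h and from 1731 to 2814 at 48 h. Of 4 neural tube markers 2 fell (Sox2 -1.98, Pax6 -1.11), with sums from 2458 to 2857 at 6 h and from 1810 to 2634 at 48 h. Of 4 surface ectoderm markers Epcam fell (-1.11), and their sums ran from 3388 to 3755 and from 1138 to 4115. Of 8 somite and muscle markers Myog rose (0.65), with sums from 1022 to 1201 and from 1081 to 1269, and of 4 smooth muscle markers none was called, with sums from 10534 to 11664 and from 9874 to 13295. RMA values hold no 0, and 1 of the 9 crest markers, Ednrb, was below the 25th percentile on every array; the part of these cell types in the rise of matrix genes was not tested.

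In the mean RA comparison, Meox1 rose (0.82) and Meox2 fell (-1.03) among the somite markers, and no neural crest, neural tube, smooth muscle, endothelial or ectoderm marker was called. Summed somite and muscle markers at 48 h ran from 1390 to 1630 with RA and from 1081 to 1269 in controls, without overlap. The median difference of the 8 markers at 48 h was -0.09, and Meox1 alone was called there. The part of these cells in the lower Col1a2, Col5a2 and Bgn was not tested.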

How the data were processed

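Total RNA was hybridised to 27 Affymetrix MG_U74Av2 arrays. The deposited values are linear intensity values that the authors made with RMA Express 0.2 before using GeneSpring, per the submitters' processing notes. They ran from 3.92 to 17003, with array medians of 92.1 to 100.5, so log2 was taken once, although the planned tests had assumed log2 values. RMA compresses differences between dim probe sets and precision depends on how many arrays a group has. After 66 control probe sets were left out, 12422 were tested. Of these, 10833 name 1 gene in the platform annotation, and promoters came from RefSeq (GRCm38.p6).

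limma 3.58.1 in R 4.3.3 fitted 1 linear model of 8 groups with 19 residual degrees of freedom. It gave moderated two-sided tests of 11 comparisons. Only the comparison of RA with control at 48 h was run on simulated data. Its simulated arrays were independent, so it cannot check the effect of leaving out the pairing. Tables were made with pandas 2.3.3 and numpy 2.4.6 under Python 3.11.15, and plots with matplotlib 3.10.9. Genes are named when called in any comparison, when among the 2 highest of a role, or for a trimer; values on each array are given for members called with RA and for the 8 largest called control changes. The genes, lists and tests were chosen with earlier results of these data known.

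Arrays fell on 9 scan days. After subtracting each group's mean, the pairing of controls with RA arrays was checked by correlating deviations over probe sets. Arrays sharing a replicate number gave 0.447 to 0.470 at 6 h and 0.229 to 0.622 at 24 h. At 12 h they gave -0.052 to 0.257, and at 48 h -0.308 to 0.670, and equal numbers were not read as pairs. Record pairs, with adjacent numbers in the scanner records, gave a median of 0.451 over 13 pairs, and other combinations -0.203 over 33. At 6, 12 and 24 h the record pairs were the same arrays as those sharing a number, so at 12 h they correlated no better. At 48 h the record pairs gave 0.670 to 0.730.

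Alternatives were a block (record pair, scan day or replicate number), array weights, an intensity trend, centring on the median, cyclic loess, a filter on the dimmest 30% of probe sets, only the groups compared, 48 h control 3 counted as RA, other probe sets, each array left out and, added after seeing the data, RA within scan day 3.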

Additional observations from a re-analysis of the deposited data

Results flagged for a closer look

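In the 48 h controls, the level of Lama2 on array 2 was 7.39, while the other 3 arrays lay between 6.88 and 6.93. The gap to the nearest array was large for the range of the group by Dixon's test. Of 33 groups of 4 arrays tested for 11 genes, this was the only 1 that stood out. Chance alone flags about 1 in 20 such groups, so 1 flag among 33 is no more than chance gives. Some of the genes were taken for large control changes up to 48 h. Array 2 of the 48 h controls is also the array with no partner in the scanner records. Without it, the RA difference of Lama2 at 48 h was -0.62 (limma, adjusted p = 0.0684), and the rise of Lama2 in controls from 6 h to 48 h was 1.18 (limma, adjusted p = 2.5e-05). No explanation was tested.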

How the results depend on the processing

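Over 35 calls of single genes, 0 reversed in any alternative fit of the probe set read. Other probe sets of the same genes were not counted in this. The second probe sets of Col1a2 (mean RA) and Tgfbi (6 h to 12 h in controls) had the opposite sign and were not called. Apart from fits without 1 array, 221 results kept their side of the threshold and 36 lost it. With a replicate block, counts of matrix genes became 1 for RA at 24 h, 8 at 48 h and 6 on average, from 0, 2 and 3, and changed by no more than 1.5 times in the other RA comparisons. With the scan day block they were 1, 6 and 11, and 1 for controls from 12 h to 24 h. With the record pair block they were 2, 5 and 12, and 1 for the change of the RA effect. Cyclic loess gave 5 for mean RA. Array weights gave 1 for RA at 6 h (Col1a2), 0 at 48 h, 8 on average, 10 for controls from 6 h to 12 h and 3 from 12 h to 24 h. Only the groups compared gave 0 for RA at 48 h, and 12, 0 and 5 for controls from 6 to 12 h, 24 to 48 h and 6 to 48 h, and 6 for RA arrays from 6 to 48 h. With 48 h control 3 as RA the count at 48 h was 0. The causes were not tested. Leaving out 1 array gave 0 to 4 for RA at 48 h, 1 to 5 for mean RA, 1 to 5, 0 to 3 and 9 to 17 for controls from 6 to 12 h, 24 to 48 h and 6 to 48 h, 7 to 14 for RA arrays from 6 to 48 h, and 0 to 0 in the 5 other comparisons. Within scan day 3, no matrix gene was called for RA at 12 h or 24 h or for controls from 12 h to 24 h by limma. Where limma called no matrix gene, the unadjusted counts over all probe sets below 0.05 were 533, 309 and 228 for RA at 6, 12 and 24 h. They were 816 for controls from 12 to 24 h and 294 for the change of the RA effect. With no effect at all, a share of 0.05 of the 12422 probe sets would be expected. All of these counts but 816 were a smaller share than that. Signal over background, which limits dim genes, is not given by RMA.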
